A study of Homo sapiens with 24 samples.

Results

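The 10 genes described here encode core proteins of the machinery that cleaves new mRNAs at their 3′ end and adds the poly(A) tail. They were chosen by name, as 12 Ensembl transcript IDs for NUDT21, CPSF6, CPSF1, CPSF2, CPSF3, FIP1L1, CSTF1, CSTF2, PCF11 and PABPN1, with the pairing of ID and gene taken from that list and not from the deposited tables. Of these genes, 9 had a transcript in each of the 2 deposited tables, and all 9 passed the filter on low values. They stand among 9342 tested transcripts of 11252 listed in the first table and among 8283 of 10767 in the other. CSTF2 (ENST00000372972) was listed in neither table, nor were the additional IDs for CPSF6 (ENST00000435070) and CPSF1 (ENST00000349769). The levels of CSTF2 are therefore not analysed here, and only its upstream sequence is looked at.

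Ribosome footprints and RNA were sequenced in MDA-MB-231 cells, an established human breast cancer line, in 24 libraries that give each group 3 replicates of either assay. Parental cells, labelled poorly metastatic, were set against LM2 cells, a derivative labelled highly metastatic to the lungs. In a separate table, cells with a control guide (sgCTRL) were set against cells with a guide against HNRNPC (sgHNRNPC), both labelled poorly metastatic. Footprints are the mRNA stretches that ribosomes shield from nuclease, and the translation efficiency of a transcript is taken here as its footprint value divided by its RNA value. All 4 groups were grown in the same high-glucose DMEM with serum to about 70% confluence, and all lysates held cycloheximide, which stalls ribosomes on mRNA. The labels do not say how many guides or clones stand behind each knockdown group, or whether the replicates were separate cultures. The p-values therefore rest only on how far these libraries differ from each other, and that spread may be technical.

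Most human mRNAs end where this machinery cuts the nascent transcript. The cleavage and polyadenylation specificity factor (CPSF) reads the AAUAAA signal and holds the endonuclease, the cleavage stimulation factor (CstF) binds GU-rich sequence downstream of the cut, cleavage factor I (CFIm) binds UGUA upstream, and cleavage factor II (CFIIm) couples cleavage to the end of transcription. Many genes carry several such sites, and the balance of these factors is known to shift the choice between them. HNRNPC, an abundant nuclear protein that binds U-rich pre-mRNA, is also known to influence that choice.

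If 1 step of the RNA values of a library is taken as 1 read, the values corresponded to about 26800000 to 52600000 reads in the LM2 table and 23300000 to 28300000 in the knockdown table. How many reads lie behind the footprint values is unknown, and their library sums were 1023095 to 1134509 in the first table and 669584 to 753066 in the other. On the same reading, RNA replicates of a group differed by more than counting noise (chi-square per degree of freedom 4.47 to 7.46), and no 2 columns were identical. Neither the level of HNRNPC nor markers of the line were analysed here, so the knockdown was not checked on its own target and the groups are named as their labels give them. The tables were scaled separately and share no library, so values are compared only within a table. Other genes overlap 5 of the 9 measured loci in the RefSeq annotation of GRCh38.p14, and the way reads were shared between overlapping genes is not given in the sources used here. The 5 are CPSF1 (given with its values), CPSF6 (with MIR1279), FIP1L1 (with LNX1 and LOC105377654), PCF11 (with PCF11-AS1 and ANKRD42-DT) and PABPN1 (within the BCL2L2-PABPN1 readthrough gene).

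In the HNRNPC knockdown cells, transcripts of these factors changed in both directions. So did all transcripts tested, of which 28.0% rose in RNA and 45.4% fell. RNA of CPSF2, CPSF3, FIP1L1 and PCF11 rose, RNA of NUDT21, CPSF6 and CPSF1 fell, and CSTF1 and PABPN1 did not pass the test. The NUDT21 change, -0.14, was close to the median of all transcripts, -0.10. It did not pass after TMM scaling, after quantile normalization or with that median set to 0. Footprints of CPSF2, CPSF3 and PCF11 rose and those of CPSF6 and CPSF1 fell. The fall of CPSF1 footprints, 3.92-fold, against a much smaller RNA fall, stood apart from the rest. The test was limma on log2(value + 1) over all 8283 transcripts, with Benjamini-Hochberg adjustment and a threshold of 0.05.

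Changes of RNA were common in this comparison and were called for 7 of 9 members, against 73.5% of all transcripts tested. Of the members 4 rose, against 28.0% of all, and 3 fell, against 45.4%. Footprints changed for 5 members, against 36.2% of all, with 3 that rose, against 15.5%, and 2 that fell, against 20.7%. Efficiency changed for 1 member, against 5.46% of all. That member fell, against 1.74% of all, and 0 rose, against 3.72% (limma; 2 members had an unadjusted p under 0.05). The 3 replicates of one group lay wholly above or below those of the other for 7 members in RNA, against 75.1% of all transcripts, and for 5 in footprints, against 46.2%. The median size of the change was 0.37 on the log2 scale for the members and 0.33 for all transcripts in RNA, and 0.34 and 0.32 in footprints. For RNA the share called and the median size were near the background, and with 9 members nothing is read from these counts about the set. After quantile normalization the footprint calls were 4 higher and 1 lower in place of 3 and 2, since FIP1L1 passed and CPSF6 did not.

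**Figure D1:**
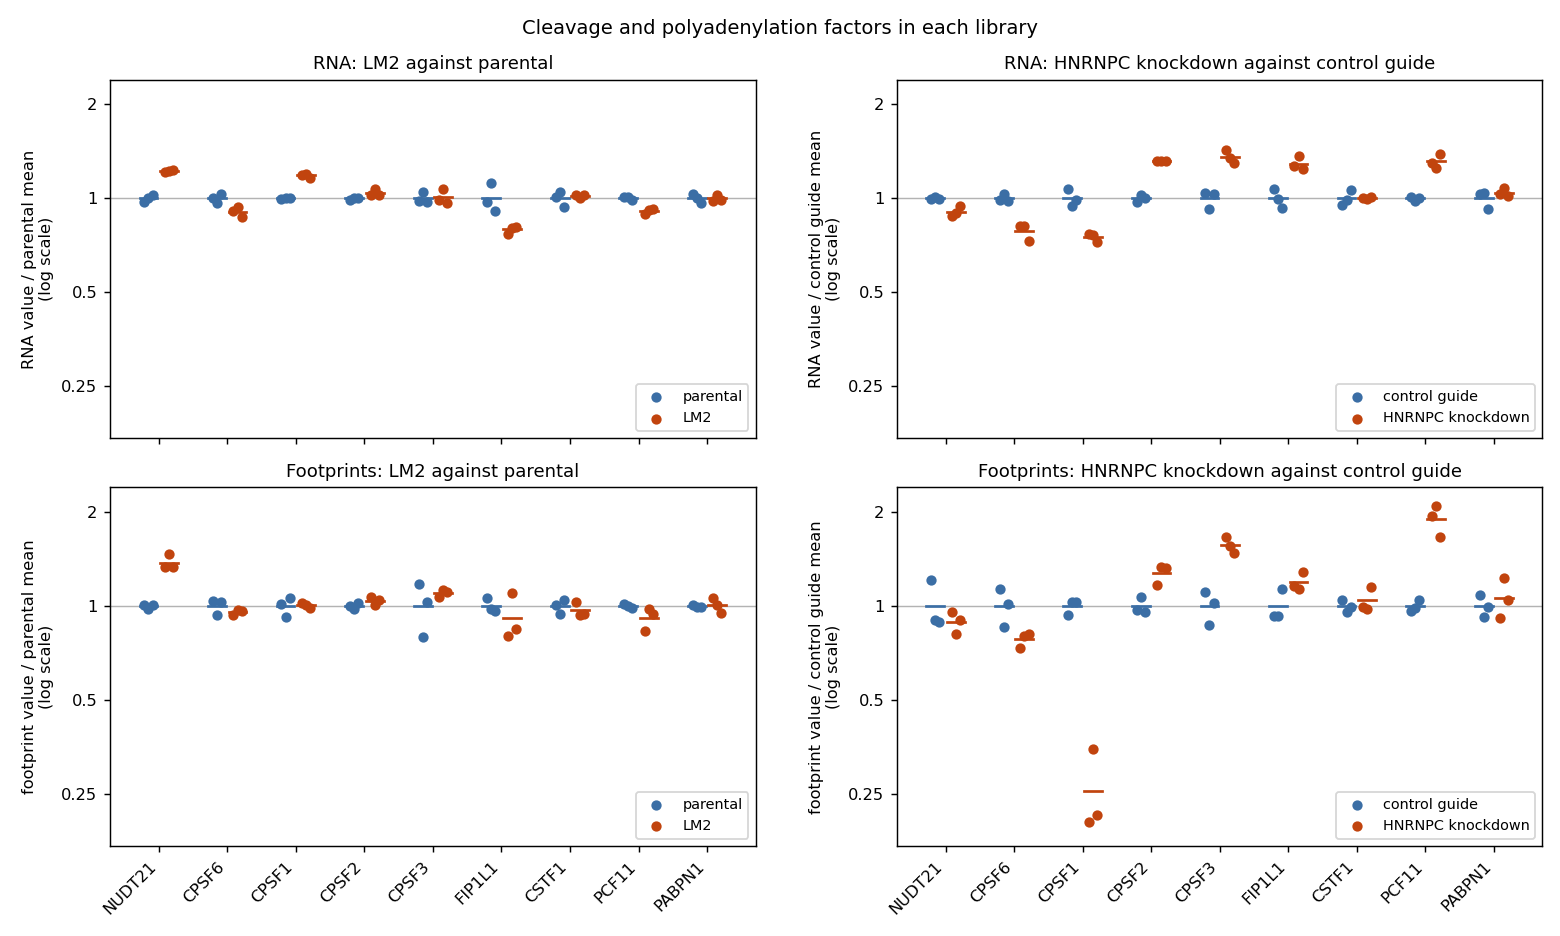
Each point is the RNA value (upper panels) or footprint value (lower panels) of a member in 1 library, divided by the mean of the control group and drawn on a log axis, with a bar at the group mean (3 replicates per group). CPSF1 footprints of the 3 knockdown libraries, at 21.7 to 37.3, lie far below the 100.2 to 110.3 of the control guide libraries. Its RNA is also lower, by less, at 1818 to 1941 against 2381 to 2690.

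CPSF1 is the largest CPSF subunit and the scaffold of the module that recognises the poly(A) signal. Its RNA (ENST00000616140) was 2690, 2381 and 2479 in the 3 control guide libraries and 1941, 1923 and 1818 in the knockdown libraries. Its footprint value was 100.2, 110.3 and 110.3 in the control guide libraries. In the knockdown libraries it was 21.7, 37.3 and 22.9. All 3 knockdown libraries were lower than all 3 controls in both assays, and the gap was wider in footprints. RNA fell by 0.41 ± 0.06 (log2 change ± SE; limma, Benjamini-Hochberg adjusted p = 7.09e-07), a 1.33-fold lower level. Footprints fell by 1.97 ± 0.17 (adjusted p = 1.54e-10), a 3.92-fold lower level on the log2(value + 1) scale, with a 95% interval of the change from -2.32 to -1.62. This was the 25th lowest footprint change of the 8283 tested.

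Translation efficiency of CPSF1 fell by 1.56 ± 0.21 on the log2 scale (95% interval -2.0 to -1.13; limma, adjusted p = 0.000354), 2.95-fold lower and the 7th lowest value of 8283. In plain ratios, footprints per 100 units of RNA value went from 4.25 ± 0.354 in control guide cells to 1.44 ± 0.461 in knockdown cells (propagated SD, n = 3). The efficiency call held in 18 of 18 alternative analyses, with values from -1.79 to -1.41 and adjusted p from 1.58e-07 to 0.0327. In bulk lysates, a fall shared by all cells and a larger fall in some of them cannot be told apart. The CPSF1 locus (GRCh38.p14, chromosome 8, 144393231 to 144409335) overlaps ADCK5 and the hairpins MIR1234, MIR6849 and MIR939, and the part of shared reads in either change was not tested. No sequence of that chromosome is printed.

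RNA of the remaining CPSF subunits measured here went the other way. CPSF2, which partners the endonuclease, had RNA values of 3146, 3306 and 3234 in control guide cells, against 4239, 4269 and 4238 in knockdown cells. Its footprints were 132.9, 147.1 and 131.8 against 160.3, 183.1 and 181.7. In both assays every knockdown library was above every control. RNA rose by 0.40 ± 0.05 (limma, adjusted p = 2.25e-08) and footprints by 0.35 ± 0.11 (adjusted p = 0.0102), and the efficiency change was -0.05 (adjusted p = 0.83). The footprint call was lost without knockdown replicate 2 (adjusted p = 0.0501) and without a variance trend (adjusted p = 0.0711).

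CPSF3 is the endonuclease that makes the cut. RNA was 1791, 1585 and 1780 in control guide cells, against 2456, 2309 and 2229 in knockdown cells, and footprints were 80.9, 63.5 and 74.4 against 121.3, 113.9 and 108.0. The groups did not overlap in either assay. RNA rose by 0.44 ± 0.06 (limma, adjusted p = 5.4e-07) and footprints by 0.65 ± 0.12 (adjusted p = 0.000112). The efficiency change, 0.21, did not pass the test (adjusted p = 0.403).

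FIP1L1 helps bind U-rich RNA and recruits the poly(A) polymerase. Its RNA was 2473, 2296 and 2145 in control guide cells, against 2928, 3140 and 2869 in knockdown cells, with no overlap, a rise of 0.37 ± 0.06 (limma, adjusted p = 2.49e-06). Footprints were 101.7, 101.6 and 124.2 against 126.8, 123.9 and 140.1. Those groups overlapped at 1 control library, and the change of 0.26 ± 0.11 did not pass the test (adjusted p = 0.0784). It passed in 4 of 17 alternatives, with values from 0.20 to 0.35 and adjusted p up to 0.229 over all 17. The 4 were the fit without control guide replicate 3, the highest control (0.35, adjusted p = 0.0333), quantile normalization (0.33, adjusted p = 0.0191), the median change set to 0 (0.29, adjusted p = 0.0442) and the spread from all 12 libraries (adjusted p = 0.0256).

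PCF11, the CFIIm subunit that binds the tail of RNA polymerase II, had the largest footprint rise of the members. RNA was 1489, 1445 and 1478 in control guide cells, against 1914, 1842 and 2041 in knockdown cells. Footprints were 30.7, 31.5 and 33.3 against 61.8, 66.4 and 52.9. The lowest knockdown library was well above the highest control in both assays. RNA rose by 0.39 ± 0.06 (limma, adjusted p = 2.77e-06) and footprints by 0.90 ± 0.17 (95% interval 0.55 to 1.24, adjusted p = 9.97e-05), a 1.86-fold higher footprint level.

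The efficiency change of PCF11 was 0.50 ± 0.15 (95% interval 0.20 to 0.81) and missed the threshold (limma, adjusted p = 0.0523). Footprints per 100 units of RNA value went from 2.16 ± 0.0992 with the control guide to 3.12 ± 0.391 in the knockdown. It passed in only 2 of 17 alternatives, with values from 0.40 to 0.64 and adjusted p up to 0.222 over all 17. The 2 were array weights (0.53, adjusted p = 0.0466) and the fit without knockdown replicate 3, the lowest of its group in footprints (0.64, adjusted p = 0.0376). The antisense gene PCF11-AS1 lies at the same locus, and its part in either change was not tested.

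**Figure D2:**
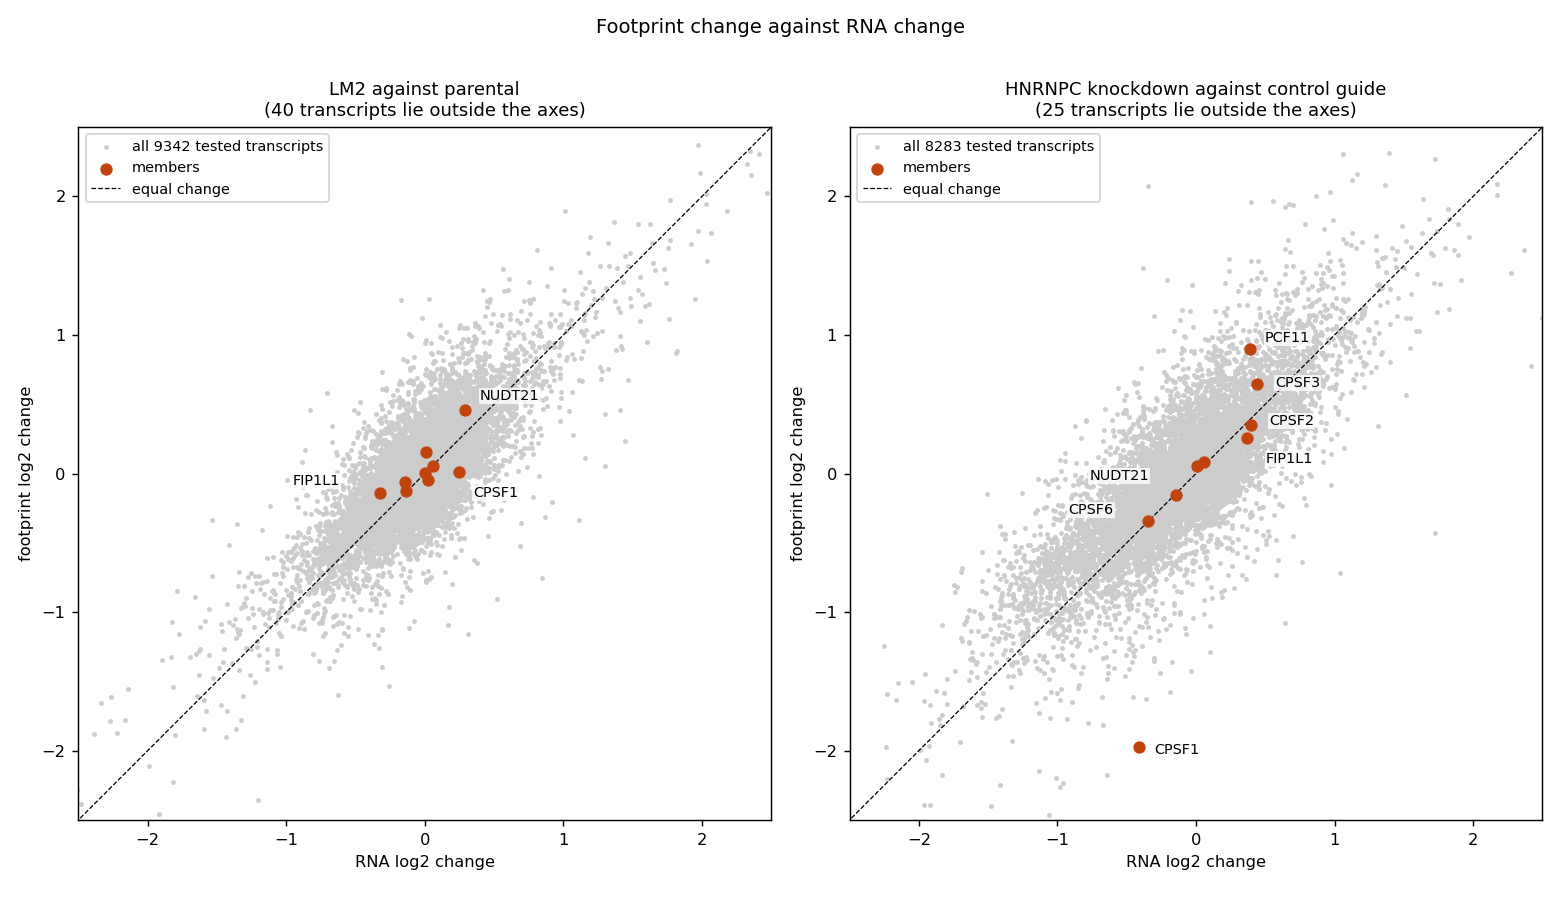
Footprint log2 change against RNA log2 change for the tested transcripts (grey) and the members (orange) in LM2 against parental cells (left) and HNRNPC knockdown against control guide cells (right), with a dashed line of equal change. Outside the axes lie 40 transcripts on the left and 25 on the right. In the knockdown CPSF1 lies far below the line, at an RNA change of -0.41 and a footprint change of -1.97, and PCF11 above it, at 0.39 and 0.90.

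The plot of footprint change against RNA change places 7 of the 9 members near the line of equal change in the knockdown, with efficiency changes between -0.11 and 0.21. The median efficiency change of all transcripts tested was 0.09, so the typical transcript lay slightly above that line. Only CPSF1 passed the efficiency test.

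The CFIm pair fell in RNA. NUDT21, the small subunit that binds UGUA, had RNA values of 3749, 3805 and 3733 in control guide cells, against 3299, 3370 and 3549 in knockdown cells. Its footprints were 127.4, 94.7 and 93.6 against 100.9, 85.6 and 94.8, and the groups overlapped. The RNA fall of 0.14 (limma, adjusted p = 0.00792) was close to the median RNA change of all transcripts, -0.10 as deposited and 0.01 after quantile normalization, and ended with that median set to 0 (-0.04, adjusted p = 0.456). It also ended after TMM scaling (-0.06, adjusted p = 0.248) and with the spread from all 12 libraries (adjusted p = 0.252), and after quantile normalization the value was 0.0046 (adjusted p = 0.935). The footprint change was -0.15 (adjusted p = 0.367).

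CPSF6, the larger CFIm subunit with the RS-like domain, fell in RNA and footprints alike. RNA was 2769, 2908 and 2760 in control guide cells, against 2299, 2285 and 2050 in knockdown cells, and footprints were 168.8, 127.7 and 151.5 against 109.2, 119.4 and 121.7. No knockdown library reached the lowest control in either assay. RNA fell by 0.35 ± 0.06 (limma, adjusted p = 4.21e-06) and footprints by 0.34 ± 0.11 (adjusted p = 0.0181), with an efficiency change of 0.0036 (adjusted p = 0.994). After quantile normalization the RNA fall was smaller, at -0.22, and still passed (adjusted p = 0.00157). The footprint call did not hold without control guide replicate 1 (adjusted p = 0.123) or 3 (0.0592), without knockdown replicate 1 (0.0736), without a variance trend (0.107) or after quantile normalization (0.0527).

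CSTF1, the WD-repeat subunit of CstF, did not pass in either assay. RNA was 1362, 1409 and 1518 in control guide cells, against 1438, 1428 and 1446 in knockdown cells, and footprints were 123.2, 112.8 and 116.9 against 116.8, 115.3 and 135.8. The groups overlapped in both assays, with changes of 0.01 in RNA (limma, adjusted p = 0.9) and 0.06 in footprints (adjusted p = 0.731). PABPN1, the nuclear poly(A)-binding protein, had RNA values of 4385, 4395 and 3929 in control guide cells, against 4364, 4566 and 4314 in knockdown cells, again overlapping. Its footprints were 119.5, 102.1 and 109.7 against 101.4, 135.7 and 115.5. The RNA change of PABPN1, 0.06 as deposited (adjusted p = 0.265), became 0.15 after TMM scaling (adjusted p = 0.00941), 0.23 after quantile normalization (adjusted p = 0.000192) and 0.17 with the median set to 0 (adjusted p = 0.00403). Under each of these 3 scalings the split of RNA calls was 5 higher and 2 lower in place of 4 and 3, since PABPN1 passed and NUDT21 did not. The other 6 RNA calls kept their direction and passed under all 3.

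**Figure D3:**
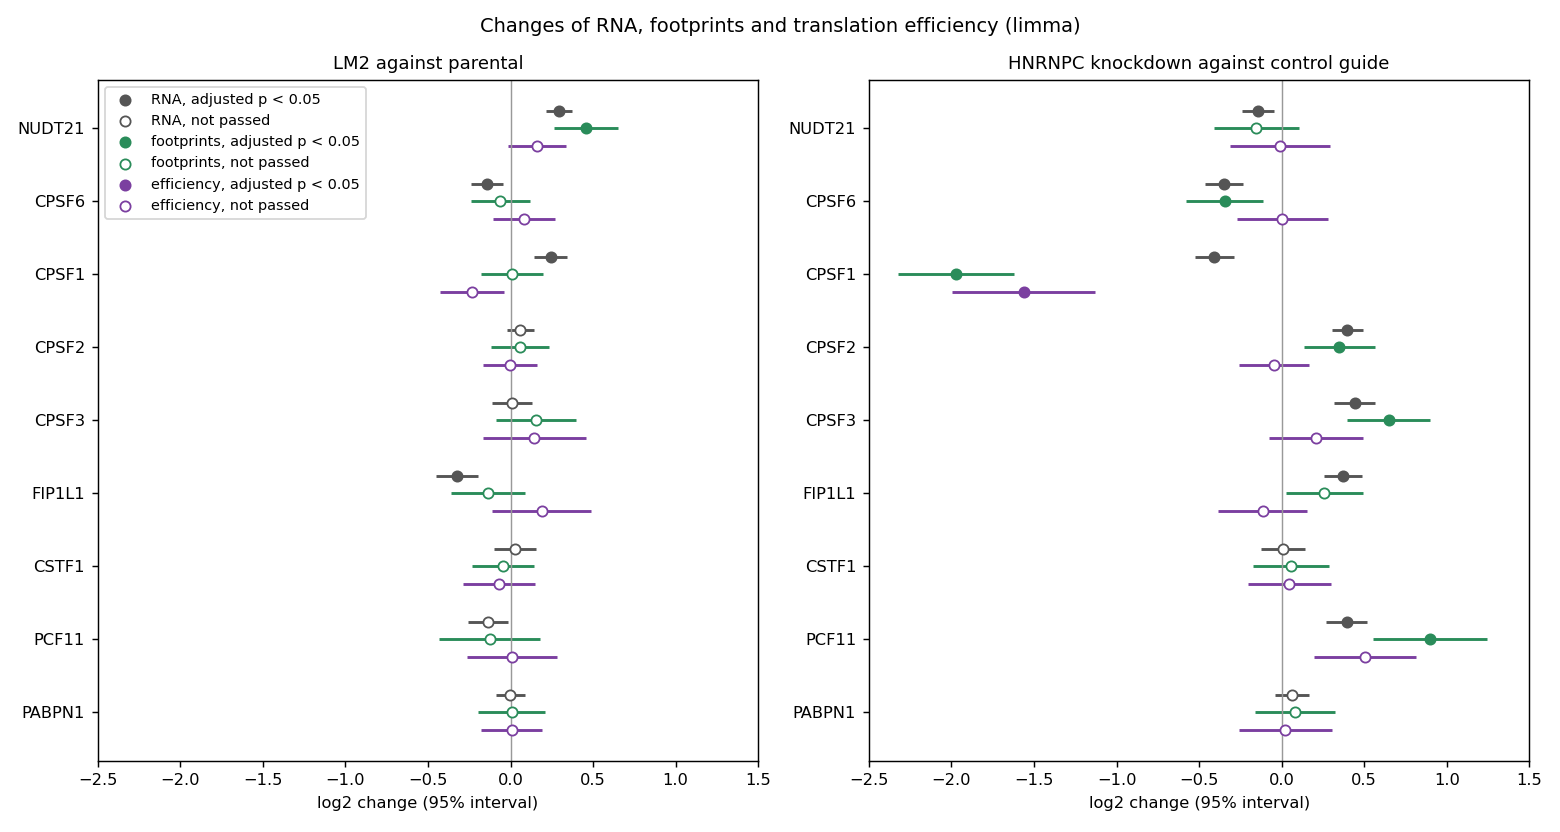
Log2 changes of RNA, footprints and translation efficiency for each member, with 95% intervals, in LM2 against parental cells (left) and HNRNPC knockdown against control guide cells (right). In the knockdown the CPSF1 intervals for footprints (-2.32 to -1.62) and efficiency (-2.0 to -1.13) lie apart from those of every other member.

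The 4 genes whose RNA was called higher in the knockdown, and CPSF6 as a member that fell, are shown by sequence, so that their promoters can be compared. The stretches are the 250 bases upstream of the annotated starts (RefSeq, GRCh38.p14, plus strand, 5′ to 3′). They lie at chr14:92121719-92121968 (CPSF2), chr2:9423404-9423653 (CPSF3), chr4:53377391-53377640 (FIP1L1), chr11:83156881-83157130 (PCF11) and chr12:69239319-69239568 (CPSF6). Capitals mark matches, on either strand, to an ETS core (CCGGAAG), an NRF1-like repeat (GCGCA, any base, then GCGC), a GC box (GGGCGG) or a CCAAT box (CCAAT).
CPSF2: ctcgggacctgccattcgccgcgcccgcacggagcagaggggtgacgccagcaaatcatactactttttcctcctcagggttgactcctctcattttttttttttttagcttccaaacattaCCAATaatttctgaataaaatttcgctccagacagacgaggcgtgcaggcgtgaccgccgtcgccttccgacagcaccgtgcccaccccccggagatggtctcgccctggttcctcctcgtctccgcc
CPSF3: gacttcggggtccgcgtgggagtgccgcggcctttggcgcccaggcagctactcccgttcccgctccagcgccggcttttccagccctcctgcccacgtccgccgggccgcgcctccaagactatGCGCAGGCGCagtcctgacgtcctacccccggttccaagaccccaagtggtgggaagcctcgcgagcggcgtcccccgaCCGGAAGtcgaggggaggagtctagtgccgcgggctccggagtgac
FIP1L1: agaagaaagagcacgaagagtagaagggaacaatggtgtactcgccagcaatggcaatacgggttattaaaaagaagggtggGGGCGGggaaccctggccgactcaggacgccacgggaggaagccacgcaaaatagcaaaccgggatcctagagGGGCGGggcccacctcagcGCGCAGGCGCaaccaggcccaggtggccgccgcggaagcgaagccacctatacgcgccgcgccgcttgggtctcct
PCF11: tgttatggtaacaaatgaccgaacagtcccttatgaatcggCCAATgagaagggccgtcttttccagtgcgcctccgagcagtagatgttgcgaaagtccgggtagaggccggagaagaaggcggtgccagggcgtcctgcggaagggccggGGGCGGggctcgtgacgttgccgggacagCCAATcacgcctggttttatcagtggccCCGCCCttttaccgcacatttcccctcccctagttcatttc
CPSF6: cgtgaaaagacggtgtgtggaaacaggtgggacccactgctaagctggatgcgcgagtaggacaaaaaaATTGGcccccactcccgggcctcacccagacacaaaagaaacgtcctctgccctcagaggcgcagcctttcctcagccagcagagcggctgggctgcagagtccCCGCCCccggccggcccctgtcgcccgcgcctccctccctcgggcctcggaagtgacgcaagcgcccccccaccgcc

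No motif among these was held by all 4 genes that rose. The 9 genes with an upstream sequence looked at here include CSTF2, which was not measured, and leave out CPSF1. The NRF1-like repeat was found in CPSF3 and FIP1L1 and, with CSTF1, in 3 of these 9. It was in 5.53% of 27305 promoters in windows of the same length. CSTF1 RNA did not pass the test, so the repeat also lay upstream of a member that was not called. The GC box was in FIP1L1, PCF11 and CPSF6 and in 6 of 9 genes (42.3% of promoters), and the CCAAT box in CPSF2, PCF11 and CPSF6 and in 6 of 9 (33.0%). The ETS core was in CPSF3, NUDT21 and CSTF2, 3 of 9 (8.82%), and a TATA box (TATAAA) in 0 of 9 (11.1%). The 27305 promoters were not limited to genes measured here and were not matched for base content, so these shares are not read as enrichment. A match is a description of these letters and not evidence that a factor binds there.

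In LM2 cells, set against parental cells, RNA of NUDT21 and CPSF1 rose, RNA of FIP1L1 and CPSF6 fell, and only NUDT21 also changed in footprints, with a rise. RNA changed for 4 of 9 members, against 53.7% of all transcripts tested, with 2 that rose, against 22.9%, and 2 that fell, against 30.8% (3 and 1 after quantile normalization, where CPSF2 passed and CPSF6 did not). Footprints changed for 1 member, against 23.8% of all, which rose, against 9.25%, and 0 fell, against 14.5% (limma; 1 member in all had an unadjusted p under 0.05). Efficiency changed for 0 members, against 1.63% of all (0.471% higher and 1.16% lower; limma, with 1 member, CPSF1, at an unadjusted p under 0.05). The replicates of the groups did not overlap for 6 members in RNA, against 58.8% of all, and for 2 in footprints, against 37.3%. The median size of the change was 0.14 for the members and 0.19 for all transcripts in RNA, and 0.06 and 0.23 in footprints.

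NUDT21 gave the clearest difference between LM2 and parental cells. RNA was 5455, 5601 and 5718 in parental cells and 6802, 6842 and 6899 in LM2 cells. Footprints were 141.1, 137.3 and 141.1 against 186.0, 204.9 and 185.9. Every LM2 library was above every parental library in both assays. RNA rose by 0.29 ± 0.04 (limma, adjusted p = 1.43e-06), 1.22-fold, and footprints by 0.46 ± 0.10 (adjusted p = 0.000488), 1.37-fold. Both calls held in 17 of 17 alternatives, and the efficiency change of 0.16 did not pass (adjusted p = 0.403).

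Its CFIm partner CPSF6 went the other way in RNA, at 3796, 3644 and 3904 in parental cells and 3451, 3543 and 3286 in LM2 cells. RNA of CPSF6 fell by 0.14 ± 0.05 (limma, adjusted p = 0.0162), with no overlap of the groups. Footprints were 243.1, 219.3 and 242.4 against 219.9, 228.8 and 226.3, overlapped, and changed by -0.06 (adjusted p = 0.667). The RNA call was lost in 5 of 17 alternatives: without parental replicate 3 (adjusted p = 0.0702), without LM2 replicate 3 (0.0949), after quantile normalization (-0.08, adjusted p = 0.144), without a variance trend (0.0549) and with the spread from all 12 libraries (0.104).

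For CPSF1 the parental RNA values were 2698, 2706 and 2707 and the LM2 values 3220, 3235 and 3151, with a clear gap. RNA rose by 0.24 ± 0.05 (limma, adjusted p = 0.000183). Footprints, at 186.8, 169.2 and 195.9 against 187.8, 185.7 and 181.2, overlapped and changed by 0.01 (adjusted p = 0.956). The efficiency change was -0.23 ± 0.09 with a 95% interval of -0.43 to -0.04, and it did not pass after adjustment (adjusted p = 0.264; 0 of 18 alternatives). In the knockdown table CPSF1 fell in RNA, so the gene was lower in RNA there and higher here.

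FIP1L1 had the largest RNA fall of the members in LM2 cells. RNA was 3254, 3747 and 3060 in parental cells and 2581, 2702 and 2715 in LM2 cells, with a wide parental spread and no overlap, and it fell by 0.33 ± 0.06 (limma, adjusted p = 0.000129). It passed in 17 of 17 alternatives, with values from -0.39 to -0.24. Footprints were 155.1, 142.7 and 140.8 against 117.0, 161.0 and 123.9, so that LM2 replicate 2 was the highest of the 6. The footprint change was -0.14 (adjusted p = 0.396) and the efficiency change 0.19 (adjusted p = 0.606).

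The other 5 members did not pass a test in LM2 cells. PCF11 RNA was 1814, 1813 and 1772 in parental cells and 1605, 1649 and 1659 in LM2 cells, lower in every library, with a change of -0.14 that just missed the threshold (limma, adjusted p = 0.0584). It passed without a variance trend (adjusted p = 0.0313). PCF11 footprints, 60.0, 59.1 and 58.5 against 49.3, 57.9 and 55.6, were also lower in every LM2 library, with a change of -0.13 (adjusted p = 0.589). CPSF2 RNA was 5070, 5141 and 5142 against 5250, 5495 and 5262, higher in every LM2 library, with a change of 0.06 (adjusted p = 0.219) that became 0.13 after quantile normalization (adjusted p = 0.00714). For CPSF3, CSTF1 and PABPN1 the groups overlapped in both assays and RNA changed by 0.01, 0.03 and -0.00065. Parental CPSF3 footprints varied most, at 130.7, 88.6 and 114.5, against 118.9, 124.9 and 123.8 in LM2 cells.

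Footprints per RNA differed widely among the members within every group. Of the members, CSTF1 had the highest ratio in all 4, with 10.5 ± 0.811 footprint units per 100 units of RNA in parental cells (propagated SD, n = 3), 10.0 in LM2 cells, 8.23 with the control guide and 8.53 in the knockdown. NUDT21 and PABPN1 were low, with 2.50 ± 0.071 and 2.71 ± 0.0925 in parental cells, and the median tested transcript there had 4.25. In parental cells CPSF1 (6.80 ± 0.502) and CPSF6 (6.21 ± 0.418) came after CSTF1 and did not differ beyond their spread. CPSF3 (5.19 ± 1.01), CPSF2 (4.46 ± 0.0919) and FIP1L1 (4.36 ± 0.515) followed, also within their spread, and then PCF11 (3.29 ± 0.0622). CPSF1 ranked at the 59.3 percentile of all transcripts with the control guide and at the 9.33 percentile in the knockdown, below every other member there. The stretch of each transcript over which reads were counted is not given in the sources used here, so the order of genes may carry differences in coding and UTR length.

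**Figure D4:**
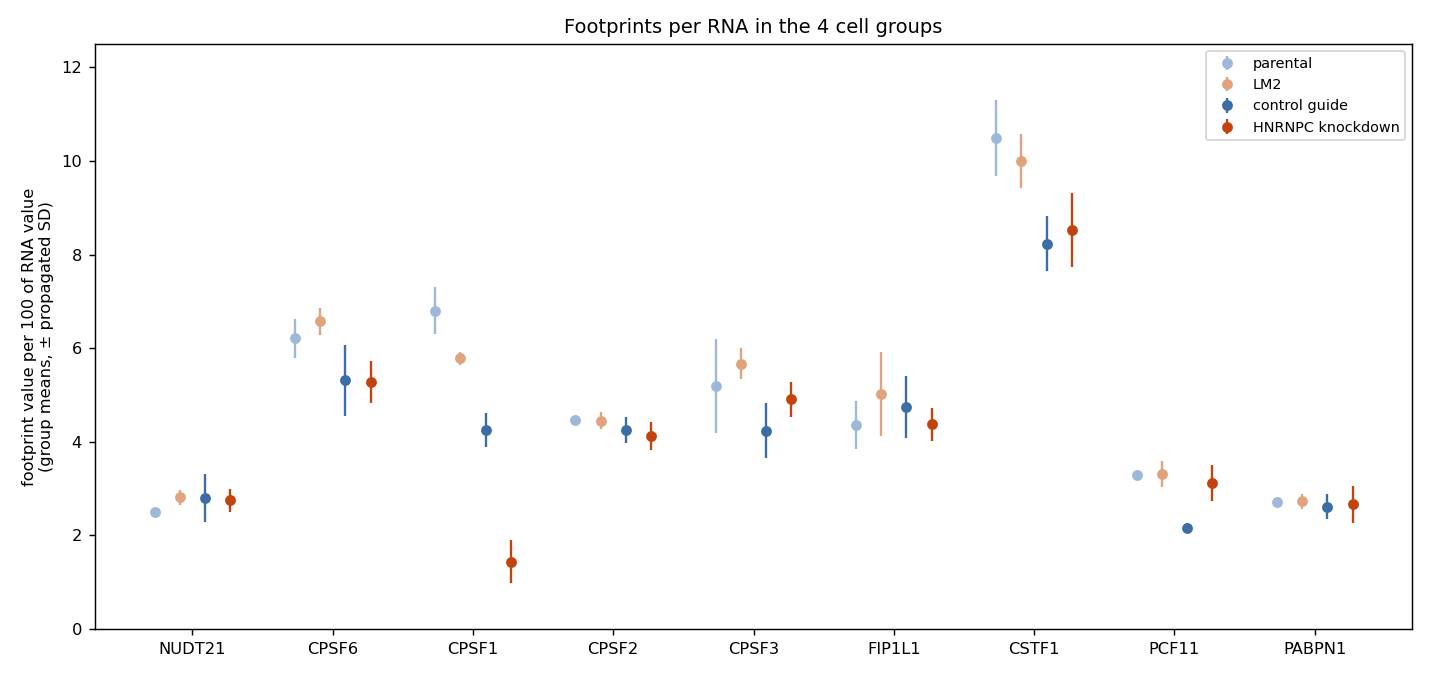
Footprint value per 100 units of RNA value for each member in the 4 groups of cells, as points with the propagated SD of 3 replicates per assay. CSTF1 stands highest in every group, and CPSF1 drops from 4.25 in control guide cells to 1.44 in knockdown cells.

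Because several of these proteins act in complexes, the balance of partner transcripts was compared within each library, where a scaling factor common to the library cancels. The ratio between genes has no meaning as an amount, since lengths were not known, and only its difference between groups is read. That difference follows from the changes of the 2 transcripts given above and is not further evidence for them. Of 16 ratios computed (4 pairs, 2 assays and 2 tables), 7 had groups that did not overlap, and each of these gave p = 0.1 in a two-sided exact permutation test, the smallest that 3 against 3 allows (0.229 after Benjamini-Hochberg adjustment). The remaining 9 had an exact p of 0.2 to 0.8. No ratio could therefore pass a threshold of 0.05.

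In LM2 cells the NUDT21 to CPSF6 ratio was 2.0 ± 0.0881 in RNA against 1.48 ± 0.0517 in parental cells, and 0.854 ± 0.0378 against 0.596 ± 0.0258 in footprints (SD, n = 3). The ratio was higher in every LM2 library than in every parental library, in both assays. The FIP1L1 to CPSF2 ratio in RNA was lower in every LM2 library, with a mean difference of -0.386 on the log2 scale. Its footprint difference, -0.196, had overlapping groups. The CPSF1 to CPSF2 ratio in RNA was higher in every LM2 library, at 0.60 against 0.528, a difference of 0.184, and its footprint difference, -0.0473, had overlapping groups.

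In the knockdown the CPSF1 to CPSF2 ratio in footprints was 0.754, 0.750 and 0.837 in control guide cells, against 0.135, 0.204 and 0.126 in knockdown cells, a difference of -2.36 on the log2 scale. In RNA that ratio was 0.780 ± 0.0685 against 0.446 ± 0.0149, a difference of -0.805. CPSF1 values were thus lower relative to CPSF2 in every knockdown library, and by more in footprints than in RNA. Part of this difference is the rise of CPSF2 itself (0.40 in RNA and 0.35 in footprints), and protein was not measured. The CPSF3 to CPSF2 and FIP1L1 to CPSF2 ratios overlapped between the groups in both assays, with differences of 0.0446 and -0.0248 in RNA and of 0.306 and -0.0906 in footprints. The NUDT21 to CPSF6 ratio in RNA did not overlap, at a difference of 0.204.

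**Figure D5:**
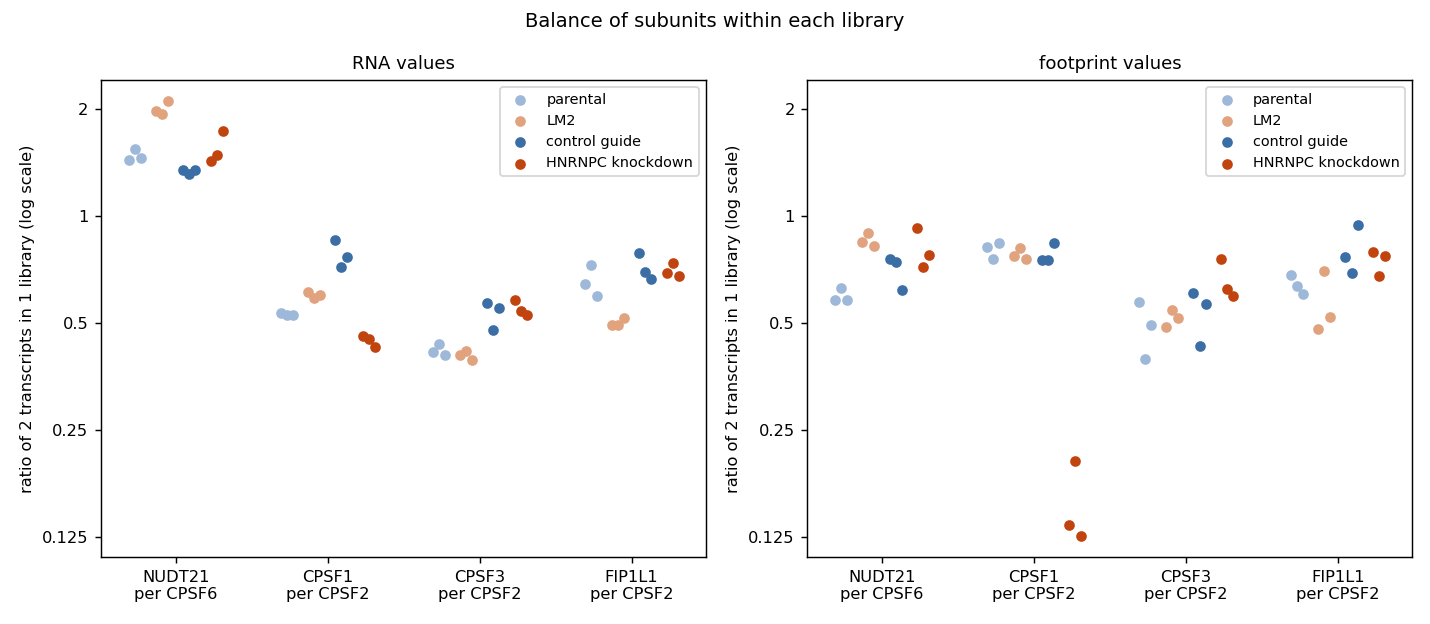
Each point is the ratio of a pair of partner transcripts within 1 library, drawn on a log axis, for RNA values (left) and footprint values (right) in the 4 groups, with 3 replicates per group. The CPSF1 to CPSF2 ratio in footprints of knockdown cells (0.126 to 0.204, against 0.750 to 0.837 in controls) lies lowest, and the NUDT21 to CPSF6 ratio of LM2 cells lies above the parental libraries in both assays.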

How the data were processed

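Ribo-seq footprints followed McGlincy and Ingolia and RNA libraries were made from the lysates with a SMARTer pico kit, per the labels' protocols. The tools, per the submitters' processing notes, were Bowtie2 2.3.5, SAMtools, cutadapt 2.3 and UMI-tools, and the build was hg38. Not given in the sources used here are the annotation, counting rule, strand setting and scaling.

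The authors deposited a normalized signal for each transcript in 2 tables, 1 for each comparison. RNA values were whole multiples of 1 step per library (100% within 0.05 of a step), and footprint values were not.

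All 24 columns entered the analysis as log2(value + 1), which understates changes of low values, and transcripts whose mean was 10 or more in each assay entered the tests. With limma 3.58.1 (R 4.3.3, variance trend), RNA and footprints were each fitted on 6 libraries, and efficiency as the interaction of assay and group on 12. Two-sided p-values were adjusted by the Benjamini-Hochberg method over every transcript tested in a table. Fold changes are on the log2(value + 1) scale.

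Every gene of the list was named, whether called or not. The genes, lists and tests were chosen with earlier results of these data known. Other genes of 3′ end processing, HNRNPC and cell line markers were not analysed here, because the reference used does not pair transcript IDs with symbols. Replicate numbers did not pair the groups compared, since same-numbered libraries of the 2 groups did not deviate together (correlations of -0.195 to 0.0349 over both assays). Within a group, same-numbered RNA and footprint libraries, which may share a lysate, correlated at -0.0061 to 0.126, positive in 11 of 12 pairs, and a fit that pairs them was an alternative. Alternatives were other pseudocounts, filters, scalings, variance settings, blocks and left-out replicates. Upstream sequences and gene positions came from RefSeq tables (GRCh38.p14), in which 9 of the 10 genes were matched for sequence and CPSF1 was not looked at.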

Additional observations from a re-analysis of the deposited data

How the results depend on the processing

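Of 933 values of single genes under alternatives, 906 kept their side of the threshold and their direction (61 of these changed sign while passing in neither analysis), 15 no longer passed, 11 newly passed and 1 turned sign. The last was NUDT21 RNA in the knockdown, 0.0046 after quantile normalization. Most of the 906 belong to tests that passed in neither analysis, so that count says little about the calls. The 15 fall on CPSF6 RNA in LM2 cells, which passed in 12 of 17 alternatives, and on 3 calls in the knockdown. These were NUDT21 RNA (passed in 13 of 17), CPSF6 footprints (12 of 17) and CPSF2 footprints (15 of 17). The number of members called for knockdown footprints was 3 without a variance trend, against 5. For knockdown efficiency it was 2 with array weights, against 1, and 1 to 2 when each replicate was left out in turn. Other member counts stayed within 1.5 times those reported. With the replicate number as a block (replicate block) the members called were 4, 1 and 0 in LM2 cells for RNA, footprints and efficiency, and 7, 5 and 1 in the knockdown, as without it. In the whole tables, efficiency calls were 43 and 183 under that block, against 152 and 452. They ranged from 0 to 313 in LM2 cells and from 75 to 629 in the knockdown over all alternatives, with 0 and 75 when footprints and RNA were paired by replicate number (limma; 1078 transcripts at an unadjusted p under 0.05 for the 0). RNA calls in LM2 cells were 2701 with the spread from all 12 libraries, against 5017. Footprint calls in LM2 cells were 1173 without a variance trend and 3434 with the spread from all 12 libraries, against 2223. A minimum mean of 50 left fewer transcripts to test (5463 of 9342 and 3994 of 8283), which lowered the counts while the share called was higher. RNA calls were then 3156 (57.8%) in LM2 cells and 3101 (77.6%) in the knockdown, and knockdown footprint calls 1844 (46.2%). PCF11 was not tested at that minimum in the knockdown table. Separate spreads for the assays and all alternatives of the ratios were chosen after the data were seen. A planned count test on whole reads was not run, since the tables hold no low RNA counts on which the size of 1 read could be checked. Apart from that filter, the causes of these differences were not tested. With 3 replicates and an unknown footprint depth, a change that missed the threshold does not show equal levels.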
